A study of Bos taurus with 6 samples.

Results

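The genes for 7 small heat shock proteins of muscle, HSPB1, HSPB2, HSPB3, HSPB6, HSPB7, HSPB8 and CRYAB, were taken by name from the gene counts of 6 cattle muscle libraries. Each of the 7 symbols had 1 row among 23015 rows, and all 7 were among the 15039 rows with enough counts to be tested. The study compared steers whose longissimus thoracis muscle (LT) had a high or a low number of fine marbling particles (NFMP), that is, of small flecks of fat counted in an image of the ribeye. All steers were Hanwoo (Korean native cattle), and RNA was taken from LT, a muscle of the back, with 1 library from each steer. The high-NFMP group held steers 3-8, 10-8 and 10-9, aged 32.5, 33.8 and 34.5 months. The low-NFMP group held steers 3-1, 3-3 and 10-16, aged 37.8, 33.7 and 35.4 months. The replicates were therefore separate animals, and NFMP was a trait by which they were chosen, not a treatment.

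The libraries were made with a 3′ mRNA method, which reads the end of each transcript, so that a count was not divided by gene length. The deposited counts summed to 16283873, 16530745 and 16798460 in steers 3-8, 10-8 and 10-9, and to 17179629, 16791858 and 17192750 in steers 3-1, 3-3 and 10-16. Levels are given as CPM, the count scaled to a common library size after TMM normalization, with the SD over 3 steers in each group. The 8 skeletal muscle markers (ACTA1, CKM, MB, DES, MYOD1, TTN, NEB and PYGM) were all detected, and TTN, which encodes the giant spring protein of the sarcomere, was the most abundant of them. Their summed level was 107733 ± 5598 CPM in the high-NFMP group and 109074 ± 12511 CPM in the low-NFMP group (SD, n = 3 steers in each). Because whole muscle was sequenced, fewer cells of a type and less RNA per cell cannot be told apart.

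Small heat shock proteins share a conserved alpha-crystallin domain and bind unfolding proteins without using ATP, holding them until chaperones of the HSP70 family refold them or pass them on for degradation. Striated muscle is known for its large content of them, where they associate with desmin, titin, filamin and actin, more so under mechanical load or heat. Mutations in HSPB1, HSPB3, HSPB8 and CRYAB cause inherited diseases of motor nerve or muscle.

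None of the 7 genes differed between high and low NFMP by edgeR's quasi-likelihood test at an adjusted p below 0.05 (0 of 7, against 0.685% of all 15039 genes tested). At an unadjusted p below 0.05 the count was also 0 of 7, against 11.5% of all genes, and with a fold change above 2 added to that threshold it was 0 of 7, against 3.9%. DESeq2 gave 0 of 7 at an adjusted p below 0.05, against 1.97% of all genes, and 1 of 7, HSPB7, at an unadjusted p below 0.05, against 11.3%, a share near that background. Limma after quantile normalization gave 0 of 7 at an unadjusted p below 0.05, against 10.8%, and its 0 of 7 at an adjusted p says nothing of these genes, since it called 0% of all genes. The log2 fold change of high over low NFMP was positive for 4 genes and negative for 3, a split in which the sign of HSPB1 turned with the scaling, with a median of 0.06 beside 0.02 for all genes tested. The levels of 1 gene, HSPB3, did not overlap between the groups (1 of 7), whereas 17.1% of all genes had groups that did not overlap.

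CRYAB and HSPB1 were the most abundant of the family. CRYAB encodes alpha-B-crystallin, a chaperone of desmin filaments and of titin. Its level was 7394, 8963 and 13532 CPM in steers 3-8, 10-8 and 10-9, and 9524, 12461 and 10416 CPM in steers 3-1, 3-3 and 10-16. Both the lowest and the highest steer belonged to the high-NFMP group, so that the low-NFMP group lay inside its range. The means were 9963 ± 3189 CPM (SD, n = 3 steers) and 10800 ± 1506 CPM (SD, n = 3 steers). The log2 fold change was −0.12 (SE 0.25, 95% interval −0.65 to 0.42) (adjusted p = 0.89 by edgeR, Benjamini-Hochberg over all genes tested), and it was 0.06 without steer 3-8, the lowest steer, and −0.38 without steer 10-9, the highest.

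HSPB1 encodes HSP27, which protects actin filaments and is phosphorylated under stress. Its level was 8184, 9461 and 13403 CPM in steers 3-8, 10-8 and 10-9, and 8860, 11659 and 9214 CPM in steers 3-1, 3-3 and 10-16. Steers 10-9 and 3-3 were the highest in their groups, as for CRYAB, and the groups overlapped. The means were 10349 ± 2721 and 9911 ± 1524 CPM (SD, n = 3 steers in each group). The log2 fold change was 0.06 (SE 0.24, 95% interval −0.45 to 0.58; adjusted p = 0.942 by edgeR), and it was −0.01 when libraries were scaled by their totals alone and −0.06 after quantile normalization, so that no direction is given for this gene. Without steer 10-9 it was −0.15 and without steer 3-1 it was −0.01, whereas it was 0.20 without steer 3-8, 0.19 without steer 3-3 and 0.16 without steer 10-8.

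HSPB8 encodes HSP22, which works with the co-chaperone BAG3 in the selective autophagy of damaged filamin at the Z-disc. Its level was 3385, 2756 and 2706 CPM in steers 3-8, 10-8 and 10-9, and 2846, 2786 and 2510 CPM in steers 3-1, 3-3 and 10-16. Steer 3-8 was the highest for HSPB8 and the lowest for both CRYAB and HSPB1. The group means of HSPB8 were 2949 ± 379 and 2714 ± 179 CPM (SD, n = 3 steers in each group), and its log2 fold change was 0.12 (SE 0.20, 95% interval −0.31 to 0.55; adjusted p = 0.851 by edgeR). Without steer 3-8 it was 0.01, and without each of the other steers it was between 0.10 and 0.19.

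HSPB6 encodes HSP20, a target of cyclic AMP-dependent protein kinase in muscle. Its level was 522, 843 and 426 CPM in steers 3-8, 10-8 and 10-9, and 630, 587 and 668 CPM in steers 3-1, 3-3 and 10-16. The low-NFMP steers lay close together, with a coefficient of variation of 6.5%, whereas the high-NFMP steers held both extremes, with a coefficient of variation of 36.6%; a difference in spread was not tested. The group means were 597 ± 219 and 628 ± 40.8 CPM (SD, n = 3 steers in each group). The log2 fold change was −0.07 (SE 0.24, 95% interval −0.58 to 0.43; adjusted p = 0.927 by edgeR), and it was 0.14 without steer 10-9, the lowest steer, 0.01 without steer 3-8 and 0.00 without steer 10-16, but −0.38 without steer 10-8, the highest steer.

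HSPB2 and HSPB3 encode proteins that bind each other in muscle, and HSPB2 is also known as a binding protein of myotonic dystrophy kinase. The level of HSPB2 was 158, 245 and 237 CPM in steers 3-8, 10-8 and 10-9, and 177, 173 and 221 CPM in steers 3-1, 3-3 and 10-16. The 3 steers whose label begins with 10 were the highest for HSPB2 in both groups. The meaning of that number is not stated by the labels. The mean HSPB2 level was 213 ± 47.9 CPM in the high-NFMP group and 190 ± 26.5 CPM in the low-NFMP group (SD, n = 3 steers in each). Its log2 fold change was 0.16 (SE 0.21, 95% interval −0.28 to 0.60; adjusted p = 0.798 by edgeR), and −0.01 with the first number of the label as a term. It was 0.28 with age as a term, 0.34 without steer 3-8 and 0.32 without steer 10-16, and between 0.09 and 0.11 without each of the other steers.

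HSPB3 was the least abundant member, at 48.0, 63.3 and 56.1 CPM in steers 3-8, 10-8 and 10-9, and 63.5, 63.7 and 69.4 CPM in steers 3-1, 3-3 and 10-16. Every low-NFMP steer was above every high-NFMP steer for HSPB3, but steers 10-8, 3-1 and 3-3 were nearly level. The lowest HSPB3 count was 795, in steer 3-8, for which counting error alone gives a coefficient of variation of 3.55%. The group means were 55.8 ± 7.68 and 65.6 ± 3.34 CPM (SD, n = 3 steers in each group). The log2 fold change was −0.23 (SE 0.18, 95% interval −0.62 to 0.15; adjusted p = 0.656 by edgeR). Without steer 3-8 it was −0.14, and without each of the other steers it was between −0.30 and −0.16.

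HSPB7, known as the cardiovascular small heat shock protein, binds filamin C and is needed for the integrity of thin filaments. It had the log2 fold change farthest from 0 among the 7 genes. Its level was 149, 183 and 267 CPM in steers 3-8, 10-8 and 10-9, and 97.1, 181 and 133 CPM in steers 3-1, 3-3 and 10-16. The 2 highest values were in high-NFMP steers and the lowest in a low-NFMP steer, but steer 3-3 was above steer 3-8 and close to steer 10-8. The means were 200 ± 60.7 CPM and 137 ± 41.8 CPM (SD, n = 3 steers in each group), with a fold change of 1.46. The log2 fold change of 0.54 (SE 0.26, 95% interval −0.01 to 1.09) had an unadjusted p of 0.0524 and an adjusted p of 0.442 by edgeR's quasi-likelihood test. Without steer 10-9 the log2 fold change was 0.29 (unadjusted p = 0.263 by edgeR) and without steer 3-1 it was 0.34 (unadjusted p = 0.214 by edgeR). It was 0.71 without steer 3-8 (unadjusted p = 0.0224, adjusted p = 0.26 by edgeR) and 0.79 without steer 3-3 (unadjusted p = 0.0125, adjusted p = 0.382 by edgeR). With the first number of the label as a term it was 0.43 (unadjusted p = 0.163 by edgeR), and with age as a term 0.40 (unadjusted p = 0.219 by edgeR). Over all 15 alternatives the adjusted p lay between 0.26 and 0.81.

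**Figure D1:**
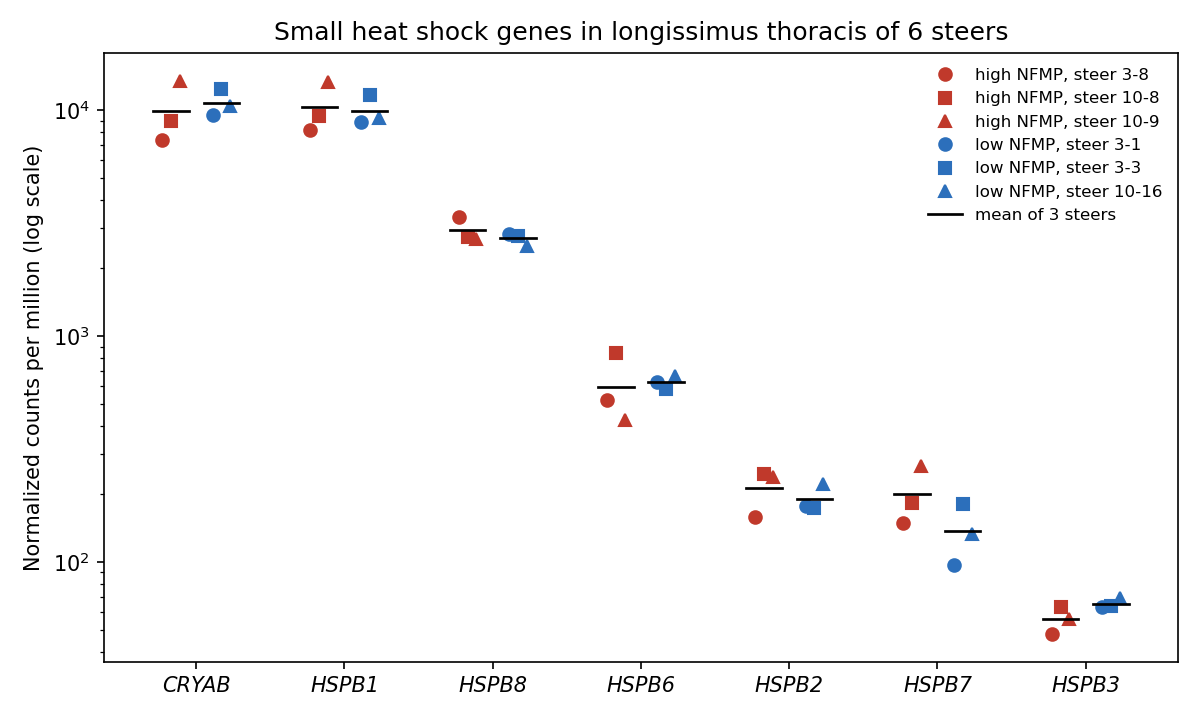
TMM-normalized levels (CPM) of the 7 small heat shock genes on a log scale, with 1 point for each of 6 steers (red, high NFMP; blue, low NFMP) and a black line at the mean of 3 steers. Genes are ordered by their mean level, and the groups overlap for each gene except HSPB3, whose high-NFMP steers lie between 48.0 and 63.3 CPM and low-NFMP steers between 63.5 and 69.4 CPM.

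Ordered by level as counts of transcript ends, CRYAB and HSPB1 came first and were not separated by their ranges, followed by HSPB8, then HSPB6, then HSPB2 and HSPB7 with overlapping ranges, and then HSPB3. The ranges of other neighbours in this order did not overlap over the 6 steers. Among all genes tested, CRYAB ranked 14 and HSPB1 ranked 15 by mean level, HSPB8 ranked 35 and HSPB6 ranked 143. HSPB2, HSPB7 and HSPB3 ranked 528, 665 and 1876.

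The 7 genes together held 2.02%, 2.06% and 3.05% of all counts in steers 3-8, 10-8 and 10-9, and 2.27%, 3.02% and 2.25% in steers 3-1, 3-3 and 10-16. Steers 10-9 and 3-3, 1 from each group, stood above the other 4. The group means were 2.38% ± 0.586 and 2.51% ± 0.438 (SD, n = 3 steers in each), a ratio of 0.947, and the two-sided exact permutation test gave p = 0.6, where 3 against 3 cannot give a p below 0.1. The ratio was 0.812 without steer 10-9 and 1.05 without steer 3-3, so that its direction turned. These 2 steers also had the smallest shares of mitochondrial-genome and ribosomal RNA counts, 19.4% and 16.9%, against 19.8% to 24.2% in the other 4. With those counts left out of the denominator, the shares of the 7 genes were 3.79% in steer 10-9 and 3.63% in steer 3-3, and between 2.63% and 2.89% in the others, with a ratio of the group means of 0.979.

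Within the family total, HSPB1 took 41.2%, 42.0% and 43.8% in steers 3-8, 10-8 and 10-9, and 39.9%, 41.8% and 39.7% in steers 3-1, 3-3 and 10-16. CRYAB took 37.3%, 39.8% and 44.2% in the high-NFMP steers and 42.9%, 44.6% and 44.8% in the low-NFMP steers, in the same order. HSPB8 took 17.1% in steer 3-8 and 8.83% in steer 10-9, with the low-NFMP steers between 9.98% and 12.8%. The SD of the HSPB8 share was 4.13 percentage points in the high-NFMP group and 1.46 in the low-NFMP group, and this difference in spread was not tested. HSPB7 took 0.752%, 0.812% and 0.872% in steers 3-8, 10-8 and 10-9, and 0.438%, 0.647% and 0.574% in steers 3-1, 3-3 and 10-16. It was the 1 of 7 members whose share did not overlap between the groups, against 7.73% of the 8722 other genes with a mean of at least 100 normalized counts, each taken as a ratio to the same total.

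Ratios of counts between members of a library were compared after the values were seen. The groups did not overlap for 5 of 21 ratios, against 18.4% of the ratios of all pairs of 8729 genes with a mean of at least 100 normalized counts, a share near that background. The HSPB1-to-CRYAB ratio was 1.11, 1.06 and 0.99 in steers 3-8, 10-8 and 10-9, and 0.93, 0.936 and 0.885 in steers 3-1, 3-3 and 10-16, so that CRYAB was counted more often than HSPB1 in 3 low-NFMP steers and 1 high-NFMP steer. The HSPB7-to-CRYAB ratio was 0.0202, 0.0204 and 0.0197 in the high-NFMP steers and 0.0102, 0.0145 and 0.0128 in the low-NFMP steers, in the same order. The HSPB2-to-HSPB3 ratio was 3.3, 3.87 and 4.23 in the high-NFMP steers and 2.79, 2.72 and 3.18 in the low-NFMP steers. The other ratios of this kind were HSPB1 to HSPB7 and HSPB3 to HSPB7. These ratios were picked because their groups did not overlap, so they are given with no test.

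Across the 6 steers, 11 of the 21 pairs of members had a positive Pearson's r of log2 CPM, and 0 pairs had an adjusted permutation p below 0.05 over the 21 pairs. HSPB1 and CRYAB were high in the same steers, with r = 0.93 (exact permutation p = 0.00694, adjusted p = 0.146) and Spearman's rho = 0.83 (exact permutation p = 0.0583, adjusted p = 0.74). Without steers 10-9 and 3-3, the 2 farthest from the HSPB1 median, r of HSPB1 and CRYAB was 0.76. HSPB3 and HSPB8 had r = −0.87 (exact permutation p = 0.0333, adjusted p = 0.299), rho = −0.49 (exact permutation p = 0.356, adjusted p = 0.74) and r = −0.96 without steers 3-8 and 10-9. Steers 3-8 and 10-16 were at opposite ends for these genes, whereas steer 10-9 was second lowest and steer 10-8 next above it for both. No other pair had an unadjusted p below 0.05 for r.

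HSPB2 and CRYAB adjoin each other in the RefSeq gene table of assembly ARS-UCD2.0, with no gene between them. Despite that, their levels differed by a wide margin, 202 CPM for HSPB2 and 10382 CPM for CRYAB over the 6 steers, and their r across steers was 0.39 (exact permutation p = 0.418, adjusted p = 0.585), with rho = 0.26 (exact permutation p = 0.658, adjusted p = 0.768) and r = 0.39 without steers 3-8 and 10-8. HSPB6 lies between LIN37 and PROSER3, of which LIN37 was at 2.46 CPM and PROSER3 had too few counts to be tested. No gene in that table overlapped a member. Other neighbours were SRRM3 and YWHAG for HSPB1, C15H11orf52 for HSPB2, SNX18 and ARL15 for HSPB3, CCDC60 and SRRM4 for HSPB8, and CFAP68 for CRYAB. Those named and tested had mean levels of at most 48.2 CPM, that of ARL15, and adjusted p-values of 0.317 (YWHAG) or more by edgeR.

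The mean profile of the 7 genes over the 6 steers was most like that of MYLPF (r = 1.00), ATP2A1 (r = 0.99), NDUFA9 (r = 0.99), RABEP2 (r = 0.98) and HGH1 (r = 0.98), out of 8722 genes with a mean of at least 100 normalized counts. MYLPF, the light chain of fast myosin, and ATP2A1, the calcium pump of fast fibres, are both on the list of fast fibre markers. Over the whole lists, 6 of 8 fast fibre markers had an r of at least 0.8 with the profile, from 0.81 to 1.00. The other 2, the myosin heavy chains MYH1 and MYH2, had −0.02 and 0.47. Of 8 slow fibre markers, 4 (MYH7, TNNI1, TNNT1 and TNNC1) had r of 0.82 to 0.93, and the other 4 (MYL2, MYL3, ATP2A2 and MYOZ2) had −0.41 to 0.24. This tally and its threshold of 0.8 were set after the values were seen, and the difference between the lists was not tested. The share of the 8722 genes that reached that r was not counted, so the tally has no background beside it. With 6 points and so many candidates, values of this size are a description of these libraries. The profile represented the members unequally, since r with it was 0.82 for HSPB1, 0.78 for HSPB2 and HSPB7, and 0.76 for CRYAB, but 0.39 for HSPB3, 0.00 for HSPB6 and −0.67 for HSPB8. The 8 fast fibre markers, of which MYLPF was the most abundant, summed to 21698, 31759 and 28613 CPM in steers 3-8, 10-8 and 10-9, and to 22825, 28341 and 26396 CPM in steers 3-1, 3-3 and 10-16. The 8 slow fibre markers, led by MYL2, summed to 8560, 13461 and 10625 CPM and to 9063, 9198 and 11884 CPM in the same orders. The part of fibre type in the levels of the 7 genes was not tested.

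The list of the cytosolic heat shock response held HSP70 and HSP90 chaperones and their partners, and with them HSPD1 and HSPE1 of mitochondria and SERPINH1 of the endoplasmic reticulum, which are also induced by heat. Of 19 tested genes of that list, 8 were lower and 0 higher in the high-NFMP group at an unadjusted p below 0.05, where 5.74% of all genes were lower and 5.73% higher. At an adjusted p below 0.05, 2 were lower, against 0.166% of all genes, and 9 had groups that did not overlap, against 17.1% of all genes. The list was chosen with earlier results of these data known. The paper had already reported HSPA1A, HSPA6, DNAJA1 and DNAJB1 as down-regulated in the high-NFMP group from these same libraries. These counts therefore describe the list and are no independent evidence. The median log2 fold change was −0.29, beside 0.06 for the 7 small heat shock genes and 0.02 for all genes. HSPA1A, the stress-inducible HSP70, was at 266, 190 and 254 CPM in steers 3-8, 10-8 and 10-9 and at 639, 792 and 528 CPM in steers 3-1, 3-3 and 10-16, a log2 fold change of −1.46 (SE 0.21, adjusted p = 0.00635 by edgeR). Its counts are uncertain to the extent that reads were shared with near-identical HSP70 copies. DNAJB1, a J-domain partner of HSP70, had a log2 fold change of −1.08 (SE 0.21, adjusted p = 0.0301 by edgeR). Over 15 alternatives the log2 fold change of HSPA1A lay between −1.60 and −1.30 and its adjusted p between 2.85e-08 and 0.169. The p was above 0.05 under 1 of them, limma after quantile normalization, which called 0 genes in all and gave HSPA1A a log2 fold change of −1.50. For DNAJB1 the log2 fold change lay between −1.26 and −0.79 and the adjusted p between 0.000848 and 0.334. The p was above 0.05 under 7, namely limma (log2 fold change −1.05), age as a term, and the leaving out of any 1 steer but 10-9. DNAJA1 and HSPA6 had log2 fold changes of −1.02 (adjusted p = 0.0505 by edgeR) and −2.15 (adjusted p = 0.0771 by edgeR), HSPA6 being at 2.93 CPM in the low-NFMP group. HSP90AA1, the most abundant gene of the list, had a log2 fold change of −0.02. Whether the fold changes of the small heat shock genes differed from those of this list was not tested.

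**Figure D2:**
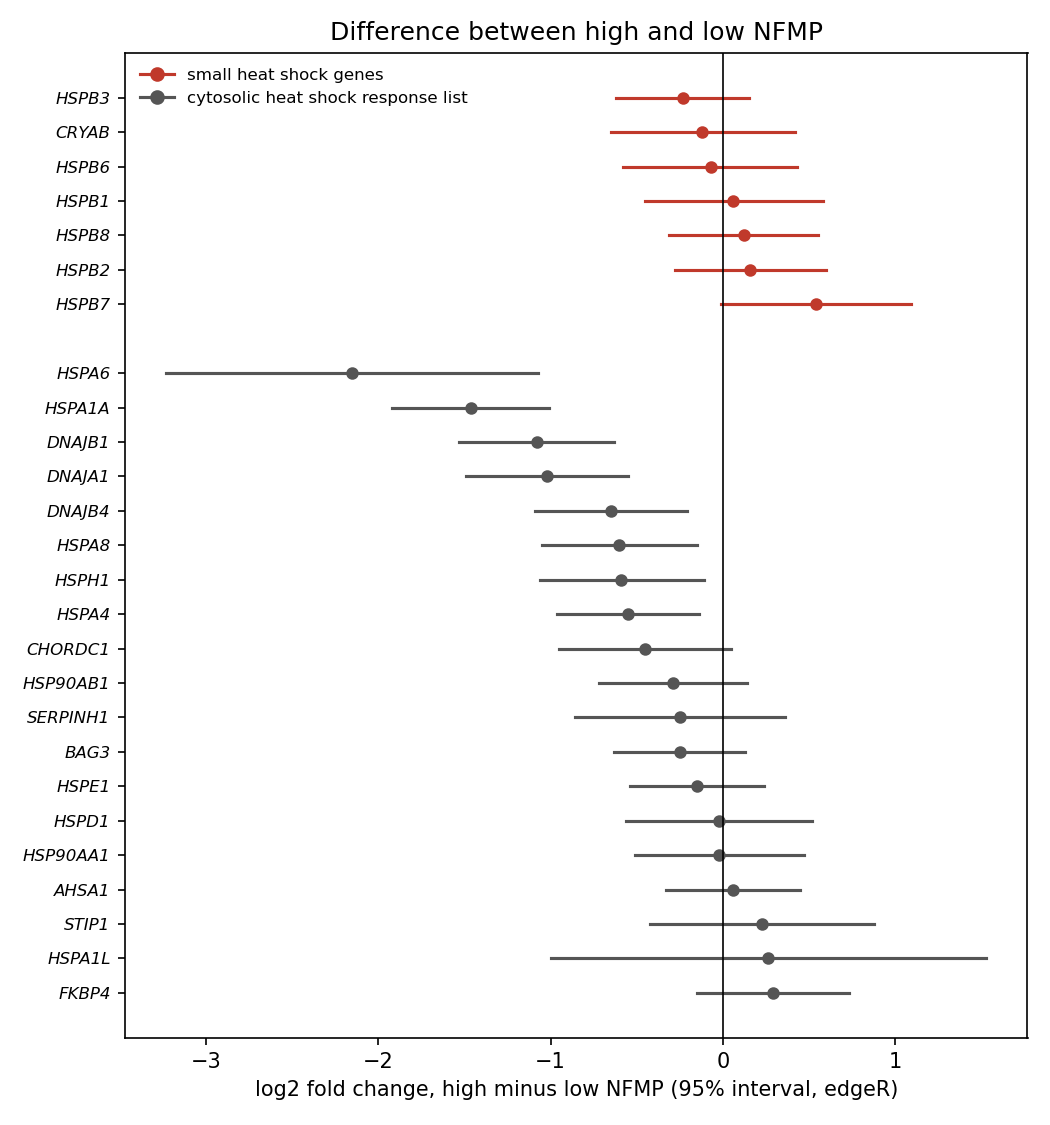
Log2 fold change of high minus low NFMP from edgeR, with a 95% interval derived from its quasi-likelihood test, for the 7 small heat shock genes (red) and the 19 tested genes of the cytosolic heat shock response (grey), with a vertical line at 0. The intervals of all 7 small heat shock genes include 0, from HSPB3 at −0.23 to HSPB7 at 0.54, whereas those of 8 of the 19 other genes lie wholly below 0, among them HSPA1A at −1.46 and DNAJB1 at −1.08, and 0 lie wholly above it. These 8 are the genes that were lower at an unadjusted p below 0.05 by edgeR, as were 5.74% of all genes tested.

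The list of partners in chaperone-assisted selective autophagy, the route that HSPB8 serves, held 9 genes, counting DMPK, the myotonic dystrophy kinase that HSPB2 binds. At an adjusted p below 0.05, 0 of these passed, and their median log2 fold change was 0.11. At an unadjusted p below 0.05, 1 was lower and 0 higher, near the 11.5% of all genes at that threshold. That gene was HSPA8, the constitutive HSC70, which like BAG3 is also on the heat shock response list and was counted there, at −0.60 (SE 0.21, adjusted p = 0.274 by edgeR). BAG3, which joins HSPB8 to HSP70, was at 379 ± 35.1 CPM in the high-NFMP and 451 ± 22.6 CPM in the low-NFMP group (SD, n = 3 steers in each), with groups that did not overlap and a log2 fold change of −0.25 (SE 0.18, adjusted p = 0.633 by edgeR). The groups did not overlap for 2 of the 9 genes of this list, against 17.1% of all genes tested. FLNC, the filamin of muscle that HSPB7 binds, was the most abundant of these partners at 1132 ± 580 and 1020 ± 274 CPM.

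Of the 10 filament and Z-disc proteins that small heat shock proteins bind, 2 were higher and 1 lower at an unadjusted p below 0.05, against 11.5% of all genes in either direction, and 0 passed at an adjusted p. The higher were the linker plectin (PLEC) at 0.49 (SE 0.20, adjusted p = 0.349 by edgeR) and vimentin (VIM) at 0.43 (SE 0.19, adjusted p = 0.426 by edgeR), and the lower was myotilin (MYOT) at −0.50 (SE 0.20, adjusted p = 0.341 by edgeR). Desmin (DES), the client of CRYAB, had a log2 fold change of 0.39 (SE 0.25, adjusted p = 0.599 by edgeR), and TTN was the most abundant.

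Among regulators, 0 of 4 heat shock factor genes (HSF1, HSF2, HSF4 and the binding protein HSBP1) passed an unadjusted p below 0.05 in either direction, with HSF1 the most abundant. Of 10 kinases that phosphorylate small heat shock proteins or act upstream of those that do, 8 were tested. At an unadjusted p below 0.05, 2 of these were lower and 0 higher, against 11.5% of all genes in either direction. At an adjusted p below 0.05, 0 passed. PRKACB, a catalytic subunit of the kinase that acts on HSPB6, had a log2 fold change of −0.92 (SE 0.26, adjusted p = 0.166 by edgeR), and MAPKAPK5 of −0.62 (SE 0.21, adjusted p = 0.254 by edgeR). PRKACB was at 23.0 ± 4.94 CPM in the high-NFMP and 43.4 ± 15.6 CPM in the low-NFMP group. PRKACA, the other catalytic subunit on the list, was more abundant, at 150 ± 29.9 and 145 ± 10.9 CPM. Its log2 fold change was 0.04 (SE 0.19, adjusted p = 0.951 by edgeR). MAPKAPK2, the main kinase of HSPB1, was the most abundant at 323 ± 90.7 and 257 ± 23.0 CPM, and MAPK11 and MAPK13 had too few counts. Of other genes named for the family, HSPB11 was at 12.3 ± 1.11 and 14.6 ± 0.88 CPM, a log2 fold change of −0.25 (SE 0.21, adjusted p = 0.684 by edgeR). Its groups did not overlap, which held for 17.1% of all genes tested. CRYAA, HSPB9 and ODF1 were not analysed here.

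Markers of other cells were read in the same libraries, since HSPB1, HSPB6 and CRYAB are also expressed outside muscle fibres. Of 8 adipocyte markers, 4 (CIDEC, ADIPOQ, LIPE and CIDEA) were higher in the high-NFMP group at an unadjusted p below 0.05, against 5.73% of all genes, and 0 passed at an adjusted p. The groups did not overlap for 4 of the 8, against 17.1% of all genes. The list summed to 557, 241 and 200 CPM in steers 3-8, 10-8 and 10-9 and to 211, 250 and 179 CPM in steers 3-1, 3-3 and 10-16, with FABP4 the most abundant. Steer 3-8, with the highest adipocyte sum, had the lowest levels of HSPB1, HSPB2, HSPB3 and CRYAB and the highest level of HSPB8. It was not the lowest for HSPB6, at 522 CPM against 426 CPM in steer 10-9. Nor was it the lowest for HSPB7, at 149 CPM against 97.1 CPM in steer 3-1. This pattern rests on 1 steer. The 6 smooth muscle markers, led by ACTA2, gave 0 genes at an unadjusted p below 0.05. Their sum was 129, 175 and 206 CPM in steers 3-8, 10-8 and 10-9, and 122, 162 and 124 CPM in steers 3-1, 3-3 and 10-16. Of 6 fibroblast markers, led by DCN, 1 (PDGFRA) was lower, of 6 endothelial markers, led by PECAM1, 1 (CLDN5) was higher, and of 6 macrophage markers, led by CD163, 1 (AIF1) was higher at an unadjusted p below 0.05, each count near the 11.5% of all genes. The slow fibre list had 1 lower gene, MYL3, and the fast fibre and skeletal muscle lists had 0, and none of these marker genes passed an adjusted p below 0.05 by edgeR. The part of these cells in the levels of the small heat shock genes was not tested.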

How the data were processed

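The authors deposited whole-number read counts per gene symbol, made from 3′ mRNA libraries of LT. Their methods name Tophat2 with HTSeq in one place and Bowtie2 with unique and multiple alignments in another, and the submitters' processing notes name Bowtie2 and bedtools. Which route made the counts, and whether strand was used, was not given in the sources used here. For the genome, the methods name build UMD3.1, whereas the gene table used here, which matched all 7 symbols, is of ARS-UCD2.0, so it served for neighbours only.

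Tests were run with edgeR 4.0.16 under R 4.3.3 (filterByExpr with minimum count 10 and minimum total 15, TMM, robust dispersions, quasi-likelihood test, Benjamini-Hochberg over 15039 rows). The common biological coefficient of variation was 25.1%. Alternatives used limma 3.58.1 and DESeq2 1.42.0. Log2 CPM used a prior count of 1. All 7 members are named; from each gene list, up to 4 genes with the smallest p and the most abundant gene; the 5 genes most like the members; and neighbours, not all of which are reported here. PRKACA was named in addition, beside PRKACB. Members and lists were chosen with earlier results of these data known. The ratios and shares of members, the fibre markers set against their profile, the summed share over TMM library sizes, and the alternatives for HSPA1A and DNAJB1, were chosen after the values were seen. No molecular identifiers are described for the reads, so a counting error given for a count covers counting only.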

Additional observations from a re-analysis of the deposited data

How the results depend on the processing

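The log2 fold changes of the 7 small heat shock genes were recomputed under 15 alternatives each (filters, scalings, DESeq2, limma after quantile normalization, a term for age or for the label's first number, and omission of each steer). Of these 105 values, 90 kept their sign and their side of an unadjusted p of 0.05, 5, all of HSPB7, kept their sign and went below it, and 10 changed sign. The lowest adjusted p among them was 0.26. HSPB1 was at −0.01 with library totals alone, −0.06 with quantile normalization and limma, and −0.01 with the label number as a term, and HSPB2 was at −0.01 with that term; the cause was not tested. With a steer left out, HSPB1 ranged from −0.15 to 0.20, HSPB6 from −0.38 to 0.14 and CRYAB from −0.38 to 0.06, while HSPB2 ranged from 0.09 to 0.34, HSPB3 from −0.30 to −0.14 and HSPB8 from 0.01 to 0.19. The number of members at an unadjusted p below 0.05 was 0 in the main comparison. It was 1 (HSPB7) without a filter, with at least 10 counts in every library, and with DESeq2, and ranged from 0 to 1 with a steer left out, being 1 without steer 3-8 and 1 without steer 3-3; the cause was not tested. The share of all genes at that threshold was 9.76% without a filter, 11.6% with at least 10 counts, 11.3% with DESeq2, 15.3% without steer 3-8 and 9.28% without steer 3-3, so that 1 of 7 was near the background in each. The number at an adjusted p below 0.05 was 0 under every alternative, of which limma called 0 of all genes. HSPB7 ranged from 0.29 to 0.79, with adjusted p from 0.26 to 0.81. The ratio of summed shares was 1.00 without CRYAB and 0.995 over TMM library sizes, a denominator chosen after seeing the data, and ranged from 0.812 to 1.05 with a steer left out. No paired analysis was possible because the 2 groups held different steers and no pairing between them is given. The first number of the label, which steers of both groups share and whose meaning is not stated, was fitted as a term. Its values for HSPB1 and HSPB2 are given above. With that term HSPB3 was at −0.31, HSPB6 at −0.15, HSPB7 at 0.43, HSPB8 at 0.19 and CRYAB at −0.23. Summing rows of a repeated symbol did not apply, since each member had 1 row. With 3 steers in each group, each 95% interval spans both no difference and differences of the size given by its bounds.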
